A study of Caenorhabditis elegans with 15 samples.

Results

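The major sperm protein (msp) genes of Caenorhabditis elegans were followed through pull-downs of the eIF4E paralogs IFE-1 and IFE-3. They were taken as every row from WBGene00003424 to WBGene00003466, a run of consecutive WormBase IDs in which msp genes are numbered. Of the 43 numbers in this run, 31 are gene IDs in a table of 46934 genes. The table holds IDs without symbols, and the RefSeq gene table used here holds 0 of these IDs. The rows could therefore not be checked one by one against the msp name, and no row is given a symbol or a role of its own.

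Whole worms were grown for 3 days at 20 °C, and 15 libraries in 5 groups of 3 were sequenced. In strain KX155 both paralogs carry an N-terminal tag placed by CRISPR at the gene itself, as mKate::ife-1 on chromosome III and GFP::ife-3 on chromosome V. This strain gave 3 groups: RNA bound to mKate::IFE-1 on RFP trap beads (IFE-1 RIP), RNA bound to GFP::IFE-3 on GFP trap beads (IFE-3 RIP) and total RNA of the unenriched extract. The other two are controls with a tag but no tagged paralog: strain LP307, with mKate::PH inserted on chromosome II, on the RFP trap (mKate control RIP), and strain LP306, with GFP::PH inserted on chromosome II, on the GFP trap (GFP control RIP). The titles call the replicates biological, and the ages of the worms are given only as the days of growth. The series design states that the tag-only pull-downs were left out of the submitters' own comparison because they held little mRNA, so their values serve here as a background. A RIP and its control share the beads but differ in strain and tag as well as in the bound protein, and these cannot be told apart.

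Major sperm proteins are small, nearly identical proteins of nematode sperm. They assemble into the filaments that move the crawling sperm cell, and once released they act as the signal that starts oocyte maturation and ovulation. Their genes are transcribed in spermatocytes, and the hermaphrodite makes its sperm before its oocytes. IFE-1 and IFE-3 are germline forms of eIF4E, the protein that binds the 5′ cap of mRNA and starts translation. IFE-1 is a component of germ granules, and its loss impairs sperm production. The question that the design puts to this family is whether its mRNAs are found with one paralog more than with the other, and more than in total RNA.

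RefSeq gives the size of the family on the WBcel235 build, without a link to the IDs. It lists 35 genes with an msp symbol, of which 31 are protein coding and 4 are pseudogenes. Of the coding genes, 28 have the same annotated gene length of 384 bases. The 35 genes lie on chromosome II, where 15 genes fall between 4785898 and 5810330, and on chromosome IV, where 20 fall between 5055631 and 10144175. How the reads that match several such copies were divided among them is not given in the sources used here, and the libraries carry no strand information. The division between single rows is for that reason less certain than their sum. No 2 rows of the block held identical values, and none was identical to any other gene.

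Values are given as TPM (transcript abundance relative to all transcripts of a library), a length-normalised abundance, divided by a scale factor for each library (scaled TPM). The factors ranged from 0.713 to 1.36. Sequencing depth is unknown, because TPM keeps none, so no counting error can be attached. Between 10066 and 14306 genes reached 1 TPM in a library, the most in GFP control RIP 1, and the 10 highest genes held 57.8% to 76.0% of all TPM.

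The msp family was abundant in total RNA. Of the 31 rows, 23 had a mean of at least 10 scaled TPM there, a level that 3374 genes reached, and 78.7% of those genes lay below the median of the 23. The other 8 rows were low in every library. WBGene00003430 was listed at 0 throughout. WBGene00003433, WBGene00003445 and WBGene00003451 were above 0 in places and never reached 1 TPM, and WBGene00003437, WBGene00003456, WBGene00003460 and WBGene00003462 stayed between 0 and 3.43 scaled TPM. The 23 abundant rows held at least 99.4% of the family's TPM in every library.

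The highest row in total RNA was WBGene00003450, which ranked 412th of all genes, with 122.3, 143.5 and 113.5 scaled TPM in replicates 1, 2 and 3. WBGene00003446 followed with 112.9, 127.7 and 102.2, and WBGene00003452 with 107.1, 123.8 and 101.7. These ranges overlap, so the order of the leading rows is not fixed by 3 libraries. Next came WBGene00003435, at 100.5, 115.6 and 99.0 scaled TPM, WBGene00003429, at 103.1, 112.5 and 93.5, and WBGene00003444, at 92.0, 117.5 and 92.5. Together the 6 rows held 41.6% to 42.8% of the family's TPM in total RNA. No single row dominated the family, although the division of shared reads between rows is uncertain.

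**Figure D1:**
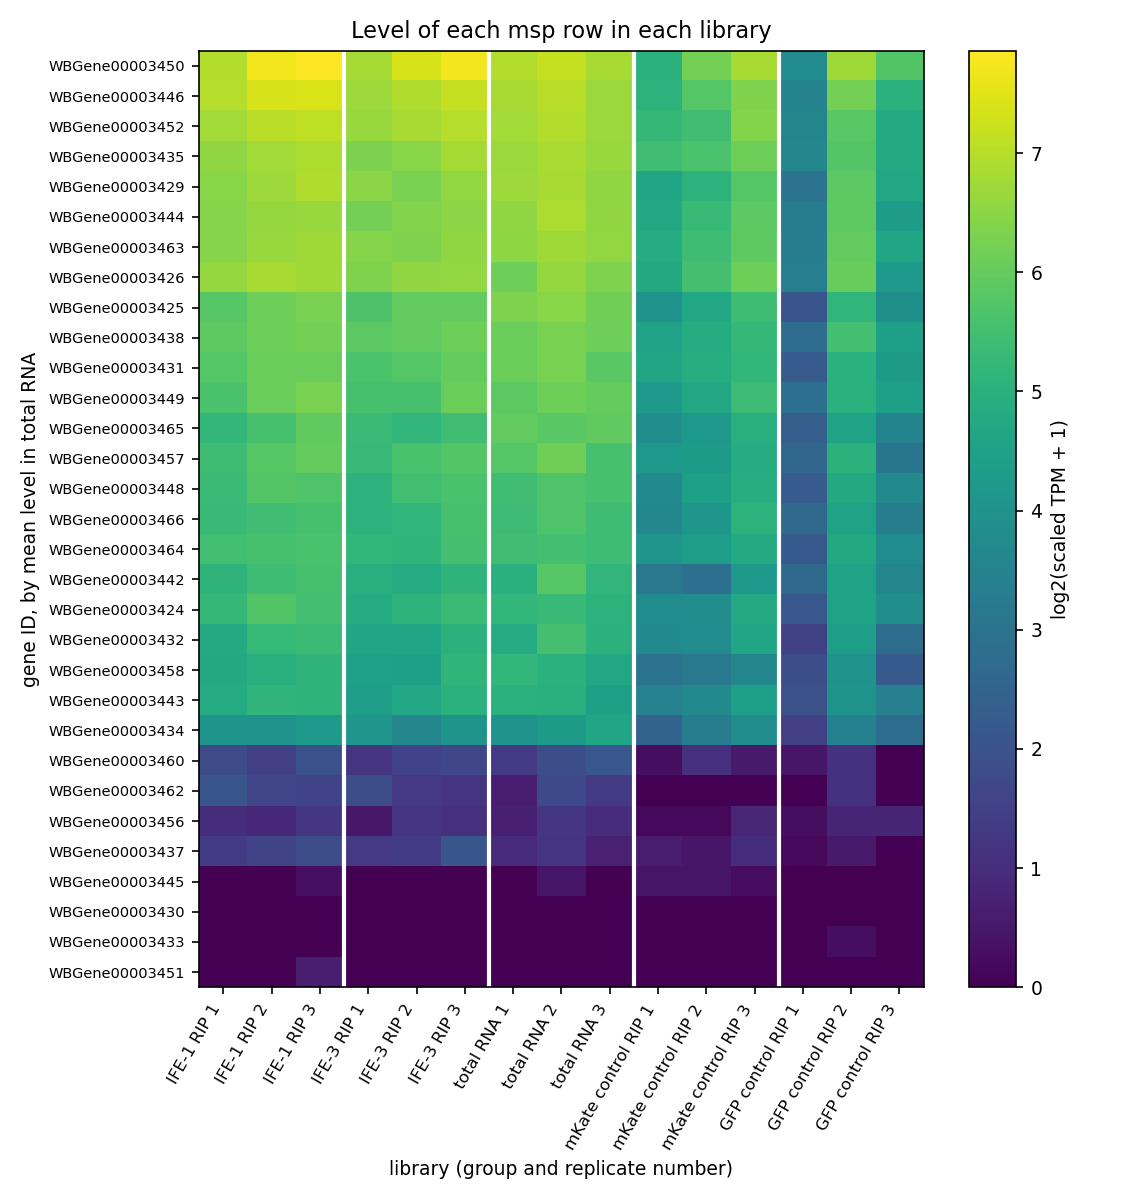
Level of each of the 31 msp rows (vertical, ordered by mean level in total RNA) in each of the 15 libraries (horizontal, grouped, with white lines between groups), as log2(scaled TPM + 1) in colour. The 23 upper rows are bright in the IFE RIPs and total RNA and darker in the controls, GFP control RIP 1 darkest, while the 8 lower rows stay near 0.

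Summed over the family, the msp level of both IFE RIPs overlapped with that of total RNA after scaling, and lay above it as a share of deposited TPM. The sum was 1396, 1755 and 1874 scaled TPM in the 3 IFE-1 RIP libraries, a mean of 1675 ± 249 (SD, n = 3). In IFE-3 RIP it was 1247, 1387 and 1656 (1430 ± 208), and in total RNA 1490, 1753 and 1448 (1564 ± 165). On this scale the 3 groups overlapped. The mean for IFE-1 RIP was 1.07 times, and that for IFE-3 RIP 0.914 times, the mean of total RNA.

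Both controls held less. The sum in mKate control RIP was 455, 642 and 1001 scaled TPM (699 ± 278), and in GFP control RIP 140, 912 and 399 (484 ± 393). Every control library lay below every library of strain KX155. The IFE-1 RIP mean was 2.40 times that of its control and the IFE-3 RIP mean 2.96 times that of its own, but the GFP control varied widely, and against the same-numbered control library the IFE-3 RIP sum was 8.88, 1.52 and 4.15 times as high. Against its control the IFE-1 RIP sum was 3.07, 2.73 and 1.87 times as high. As a share of deposited TPM, which involves no scale factor, the family made up 0.159% ± 0.0254 of the IFE-1 RIP, 0.141% ± 0.0267 of IFE-3 RIP, 0.121% ± 0.00343 of total RNA, 0.0786% ± 0.0244 of mKate control RIP and 0.0610% ± 0.0496 of GFP control RIP (SD, n = 3 each). On this scale all 6 IFE RIP libraries, at 0.126% to 0.187%, lay above all 3 total RNA libraries, at 0.118% to 0.125%, and the means were 1.31 times (IFE-1) and 1.17 times (IFE-3) that of total RNA. The median of all genes moved the same way when the scale factors were left out, to 0.21 and 0.27 on the log2 scale. GFP control RIP 2, at 0.116%, came close to total RNA.

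**Figure D2:**
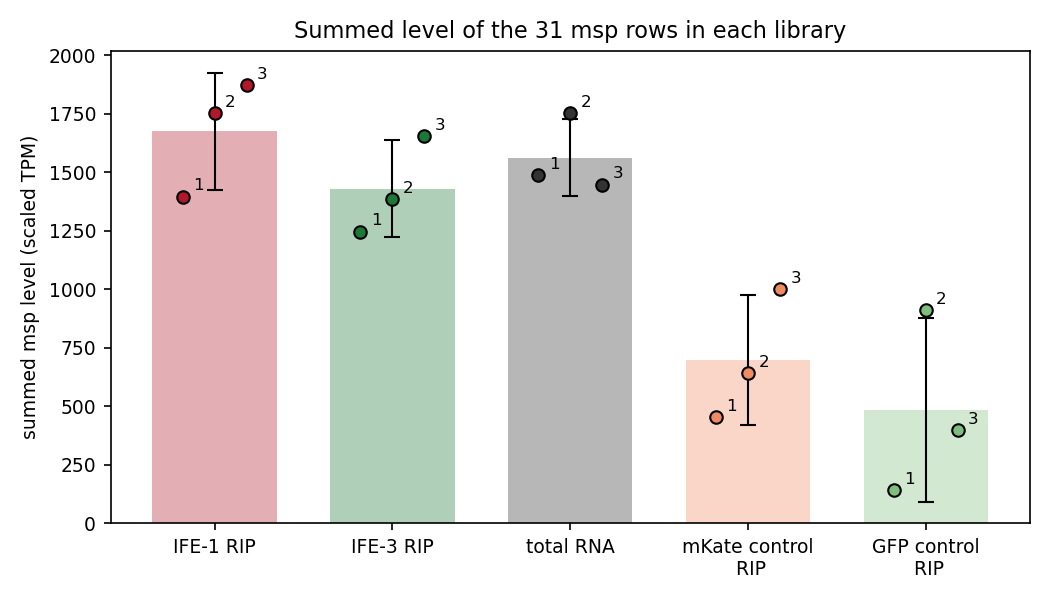
Summed level of the 31 msp rows (vertical axis, scaled TPM) in the 5 groups; bars are means, error bars the SD of 3 libraries, and points single libraries with their replicate number. Total RNA and both IFE RIPs lie between 1247 and 1874, and all control libraries lie between 140 and 1001.

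Whether IFE-1 held msp RNA beyond its level in total RNA was tested row by row with limma on log2(scaled TPM + 1), over every gene that reached 1 TPM in no fewer than 3 libraries and with Benjamini-Hochberg adjustment over all of them. The call was set at an adjusted p under 0.05, and fold changes are log2 differences on that scale. Here 27 msp rows could be tested, and 0 were called in IFE-1 RIP against total RNA, where 10.2% of all 12099 genes were called in either direction. The lowest adjusted p of limma among them was 0.132, and 3 of the 27 had an unadjusted p under 0.05, as did 3197 of all genes. The median msp log2 fold change was 0.00, beside -0.01 for all genes, with 14 of 27 rows above 0 and values from -0.36 to 0.62. The top value was that of the low row WBGene00003437. Of the 23 abundant rows 11 were above 0, and the highest reached 0.51. With TPM as deposited, without scale factors, 26 of 27 rows were above 0, the msp median was 0.28 beside 0.21 for all genes, and 2 rows were called, as were 10.6% of all genes. The 95% confidence intervals of the 27 rows spanned -0.75 to 1.17, so changes up to about those sizes were not excluded for single rows.

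Rows differed in where they stood within this range. The highest fold change among the abundant rows was that of WBGene00003450, with 122.9, 203.7 and 231.1 scaled TPM in IFE-1 RIP against the 113.5 to 143.5 of total RNA. Its IFE-1 RIP replicate 1 lay within the range of total RNA and the other two lay above it. The log2 fold change was 0.51 ± 0.28 (SE), with an adjusted p of 0.294 by limma. The lowest was that of WBGene00003465, with 35.5, 46.6 and 59.8 scaled TPM in IFE-1 RIP and 61.9, 56.1 and 60.6 in total RNA. Its groups overlapped through replicate 3 of the RIP, and the log2 fold change was -0.36 ± 0.17 (SE), with an adjusted p of 0.232 by limma. Only 1 of the 27 rows had groups that did not overlap, WBGene00003437, named here after its values were seen, while 32.8% of all genes did. That row is among the low ones, with 1.56, 2.05 and 2.59 scaled TPM on the IFE-1 beads and 0.934, 1.26 and 0.661 in total RNA. With TPM as deposited it was under 1 in every total RNA library, so it entered the test only through the RIPs. Its lack of overlap is therefore not counted as a result.

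The same test of IFE-3 RIP against total RNA also called 0 of 27 msp rows, where 11.2% of all genes were called. The median msp log2 fold change was -0.19, beside 0.03 for all genes, and 6 of 27 rows were above 0, but with TPM as deposited the msp median turned to 0.12, below an all-gene median of 0.27, and 21 rows were above 0. Single rows ranged from -0.59 to 0.62, the top being again the low row WBGene00003437. Of the 23 abundant rows 4 were above 0, up to 0.33. Unadjusted p was under 0.05 for 1 row that was higher, WBGene00003437, and 2 that were lower in IFE-3 RIP, and for 3256 of all genes. WBGene00003450 again had the highest fold change of the abundant rows, with 110.9, 165.8 and 211.3 scaled TPM in IFE-3 RIP. Its groups overlapped, and its log2 fold change was 0.33 ± 0.28 (SE), with an adjusted p of 0.507 by limma.

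At the other end, WBGene00003465 had 39.6, 35.0 and 42.7 scaled TPM in IFE-3 RIP, each below the 56.1 of its lowest total RNA library. Its log2 fold change was -0.59 ± 0.17 (SE), and its adjusted p of 0.0632 by limma, the lowest of the 27, missed the threshold. It was called in 4 of 17 alternative fits, with adjusted p between 0.0301 and 0.561. Groups did not overlap for 4 of the 27 rows, 3 of them lower and 1 higher in IFE-3 RIP, where 31.6% of all genes did not overlap. The lower ones were WBGene00003425, WBGene00003444 and WBGene00003465. The higher one was WBGene00003437, which entered the test only through the RIPs. All 4 are named after their values were seen. WBGene00003425 had 49.4, 61.8 and 62.2 scaled TPM in IFE-3 RIP against 79.7, 87.0 and 70.2 in total RNA.

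Between the paralogs, every one of the 27 msp rows was on the IFE-1 side, and none passed the test. In IFE-1 RIP against IFE-3 RIP 0 of 27 rows were called, where 1.52% of all genes were, and the lowest adjusted p was 0.297 by limma. The median msp log2 fold change was 0.21, beside 0.02 for all genes, with a range of 0.00 to 0.40. Over all genes 53.4% were above 0. With TPM as deposited the median was 0.17 and 26 of 27 rows were above 0. With single libraries left out the median was 0.13 to 0.30, and 24 to 27 rows were above 0. The summed msp level was 1.12, 1.27 and 1.13 times as high in IFE-1 RIP as in the same-numbered IFE-3 RIP library. Since the rows rose and fell together from library to library, their common sign is not 27 separate observations.

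Same-numbered libraries of the 2 RIPs deviated together over all genes, and a fit with the replicate number as a block called 4.4% of all genes and again 0 msp rows, with a lowest adjusted p of 0.166 by limma. For the 23 abundant rows the 95% confidence intervals without the block spanned -0.46 to 0.89. The highest fold change belonged to WBGene00003442, with 33.5, 41.7 and 46.9 scaled TPM with IFE-1 and 29.3, 27.3 and 33.8 with IFE-3. The groups overlapped only between the lowest IFE-1 and the highest IFE-3 library, and the log2 fold change was 0.40 ± 0.22 (SE), with an adjusted p of 0.411 by limma. The lowest among the abundant rows was WBGene00003438, with 59.7, 68.5 and 73.4 scaled TPM with IFE-1 and 58.3, 61.8 and 69.3 with IFE-3, and a log2 fold change of 0.08 ± 0.12 (SE; adjusted p = 0.806, limma). In 1 row of 27, WBGene00003426, the groups did not overlap, where 20.8% of all genes did not. Its levels, looked up after the values were seen, were 96.1, 113.3 and 106.3 scaled TPM with IFE-1 and 80.7, 93.0 and 95.5 with IFE-3.

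**Figure D3:**
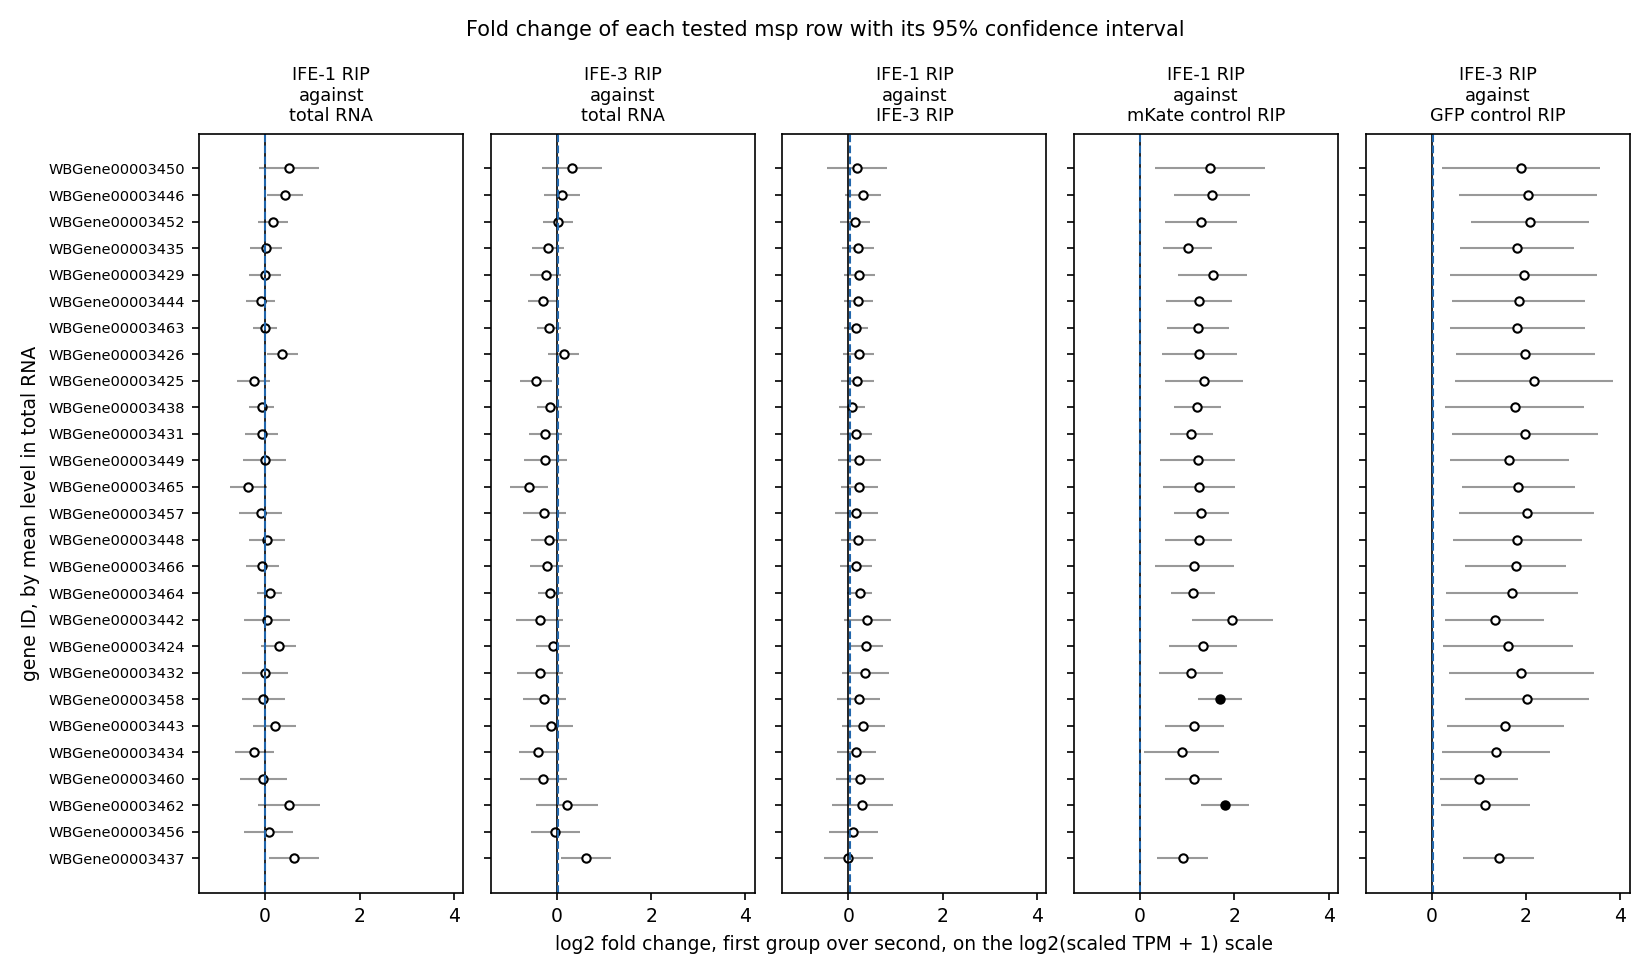
Log2 fold change of each tested msp row (points) with its 95% confidence interval (lines) in 5 comparisons, on the log2(scaled TPM + 1) scale; filled points passed an adjusted p under 0.05, the solid line is 0 and the dashed line the median of all genes. The first 3 panels hold 27 rows around 0 with no filled point. The last 2 hold 26 rows, all to the right of 0, with 2 filled points against mKate control RIP. The lower filled point, WBGene00003462, entered that test only through the RIP. The low rows WBGene00003437, WBGene00003460 and WBGene00003462 could enter both control tests through the RIP alone, so their side of 0 is not counted as a result.

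Against the tag-only controls the family stood higher in both RIPs. Without the replicate number as a block, few of these differences passed the adjustment for all genes. With it, 22 of the 23 abundant rows were called against mKate control RIP and 0 against GFP control RIP. WBGene00003450 had 31.3, 72.8 and 112.7 scaled TPM in mKate control RIP, below the 122.9 of its lowest IFE-1 RIP library. WBGene00003446 had 124.3, 166.3 and 170.5 in IFE-1 RIP and 32.9, 54.5 and 80.4 in the control, and WBGene00003452 had 108.8, 131.7 and 135.6 against 36.4, 42.9 and 83.3. In each of the 3 rows replicate 1 was the lowest and replicate 3 the highest in RIP and control alike, and no control library reached the RIP libraries. The log2 fold changes of the 3 rows were 1.48 ± 0.49, 1.52 ± 0.34 and 1.29 ± 0.32 (SE), and with adjusted p of 0.125, 0.0739 and 0.0866 by limma none was called.

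The 23 abundant rows are counted here, since a low row could enter the test through the RIP alone. They were chosen for their level in total RNA of KX155. The shares of all genes beside them, here and for IFE-3 RIP, cover every gene tested and are not matched for level. All 23 were above mKate control RIP in every IFE-1 RIP library, where 16.6% of all 12238 genes had such higher groups without overlap; with TPM as deposited this held for 22 of the 23 and 8.47% of all genes. At least 2-fold higher were 22 of the 23, against 4.97% of all genes, but with TPM as deposited 9 of the 23, against 2.45%. In addition, all 23 had an unadjusted p under 0.05 in that direction, against 14.9% of all genes. The median log2 fold change of the 23 was 1.24, with a range of 0.88 to 1.96, where the median of all genes was 0.01. Called at an adjusted p under 0.05 was 1 of the 23, where 0.311% of all genes were called as higher.

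The called row was WBGene00003458, with 26.5, 29.4 and 33.3 scaled TPM in IFE-1 RIP and 6.89, 7.98 and 11.1 in mKate control RIP. Its groups were far apart, the log2 fold change was 1.69 ± 0.19 (SE) and the adjusted p was 0.0368 by limma, and the call was lost in 7 of 14 alternative fits. In total RNA this row stood at 35.9, 31.2 and 25.2. Among the low rows WBGene00003462 had 3.26, 2.14 and 1.96 scaled TPM in IFE-1 RIP, while all 3 mKate control libraries are listed at 0. It entered the test only through the RIP libraries, so its passing of the threshold is not counted here, and no fold is given against a group at 0.

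Pairing the libraries by replicate number changed the count. IFE-1 RIP and mKate control RIP libraries of the same number deviated together over all genes, by correlations of 0.152 to 0.353. Unlike-numbered ones reached 0.133, so the pairing rests on a small margin. With the number as a block 22 of the 23 abundant rows were called, where 8.55% of all genes were called as higher. WBGene00003450, WBGene00003446 and WBGene00003452 then had adjusted p of 0.0349, 0.0325 and 0.0401 by limma. The abundant row not called was WBGene00003434, at 0.0807. Without the block the count of 1 of the 23 became 23 when mKate control RIP 3, the highest control library, was left out, a fit that called 12.7% of all genes against 0.474% with that library, and 0 when any other single library was left out.

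In the GFP pull-downs the fold changes were larger and the spread wider. WBGene00003450 had 12.8, 105.7 and 52.4 scaled TPM in GFP control RIP, all below its lowest IFE-3 RIP library of 110.9, but with TPM as deposited GFP control RIP 2, at 134.2, was above that library, at 111.8. WBGene00003446 had 104.6, 119.8 and 144.1 in IFE-3 RIP and 10.5, 72.7 and 31.2 in the control, and WBGene00003452 had 98.1, 114.0 and 125.5 against 11.03, 56.05 and 27.2. Replicate 1 was the lowest and replicate 2 the highest of the control libraries in each. The log2 fold changes of the 3 rows were 1.90 ± 0.71, 2.04 ± 0.62 and 2.08 ± 0.53 (SE), with adjusted p of 0.329, 0.271 and 0.208 by limma.

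In all 23 abundant rows every IFE-3 RIP library lay above every GFP control library, as were 11.4% of all 12249 genes, and all were at least 2-fold higher, as were 5.13%. With TPM as deposited 15 of the 23 overlapped, and the 8 that did not compare with 4.03% of all genes. An unadjusted p under 0.05 in that direction was reached by all 23 and by 9.11% of all genes, and with TPM as deposited by 17 of the 23 and 3.54%. Their median log2 fold change was 1.84, from 1.338 to 2.172, where the median of all genes was 0.02. At an adjusted p under 0.05 limma called 0 of the 23 and 0.0653% of all genes as higher. With the replicate number as a block, which same-numbered libraries of these 2 groups also bore out, 0 rows and 0.596% of all genes were called as higher, and the lowest adjusted p of the rows was 0.0676 by limma. The median over the 26 rows tested, which include low rows that could enter through the RIP alone, was 1.82. It was 1.15 without GFP control RIP 1 and 2.40 without GFP control RIP 2. Leaving out GFP control RIP 2 gave 12 called rows, all among the 23. That fit called 2.21% of all genes, against 0.0898% with that library.

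The distance to the control was not shown to differ between the paralogs. The difference between the 2 RIPs after subtracting each one's control, in a fit of those 12 libraries, called 0 of 27 msp rows and 0.319% of all 14114 genes. None of the 27 had an unadjusted p under 0.05, as 2375 genes did, and the lowest adjusted p was 0.447 by limma. The median msp value was -0.54, towards a larger distance for IFE-3, and it turned to 0.09 when GFP control RIP 1 was left out and to -1.13 when GFP control RIP 2 was, with 11 rows then at an unadjusted p under 0.05 and 0 called. The 95% confidence intervals of the 27 rows spanned -2.75 to 2.01.

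Because these are RNAs of whole worms, fewer sperm-forming cells and less msp RNA in each such cell cannot be told apart. Total RNA of strains LP307 and LP306 was not analysed here, so the msp content of the control worms is not known, and its part in the distance to the controls was not tested.

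Over all 15 libraries the make-up of the family was steadier than its level. The summed level ranged 13.3-fold, from 140 scaled TPM in GFP control RIP 1 to 1874 in IFE-1 RIP 3. The controls set most of this range, as the sums of the KX155 libraries lay between 1247 and 1874. Levels of the 23 abundant rows ranged a median of 13.1-fold over all 15 libraries. Their shares of the summed msp TPM ranged a median of 1.62-fold, from 1.21-fold for WBGene00003463 to 4.00-fold for WBGene00003442. The rows moved mostly together over these libraries. A share leaves out the summed level by definition. How reads that match several copies were divided among the rows is not known here, and its part in the steady shares was not tested. Ranges of level and share were not compared within KX155 alone.

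Some rows did shift their share. WBGene00003450 held 8.21%, 8.18% and 7.83% of the msp TPM in the total RNA libraries and 8.80%, 11.6% and 12.3% with IFE-1. With IFE-3 it held 8.89%, 11.96% and 12.76%, and the controls ranged from 6.88% to 13.1%. All 6 IFE RIP libraries lay above total RNA, and the first replicate was the lowest in each of the 4 kinds of pull-down. WBGene00003446 held 7.31% ± 0.26 of total RNA's msp TPM, 9.16% ± 0.29 with IFE-1 and 8.58% ± 0.17 with IFE-3, and 7.92% ± 0.63 and 7.77% ± 0.25 in the mKate and GFP controls (SD, n = 3).

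Rows with a smaller share in the pull-downs were found too. WBGene00003465 held 3.84% ± 0.56 in total RNA, and 2.80% ± 0.35, 2.76% ± 0.36, 2.86% ± 0.15 and 2.72% ± 0.27 with IFE-1, with IFE-3 and on the mKate and GFP control beads (SD, n = 3). Its 3 total RNA libraries were above all 12 pull-down libraries, but by a very narrow margin. The lowest, total RNA 2, stood at 3.197% and the highest pull-down library, IFE-1 RIP 3, at 3.1915%. The total RNA libraries of WBGene00003425 were also above all 12, at 4.85% to 5.35% against 2.26% to 4.46% in the pull-downs. No row had total RNA below all 12. The lower share of these 2 rows was seen on beads with and without a tagged paralog. Against the 6 IFE RIP libraries alone, 3 rows had a share in total RNA above all and 4 below all. Shares within the family depend on each other, since a rise in some rows lowers the others. No rate for other genes stands beside these counts, so whether they are more than usual was not tested.

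**Figure D4:**
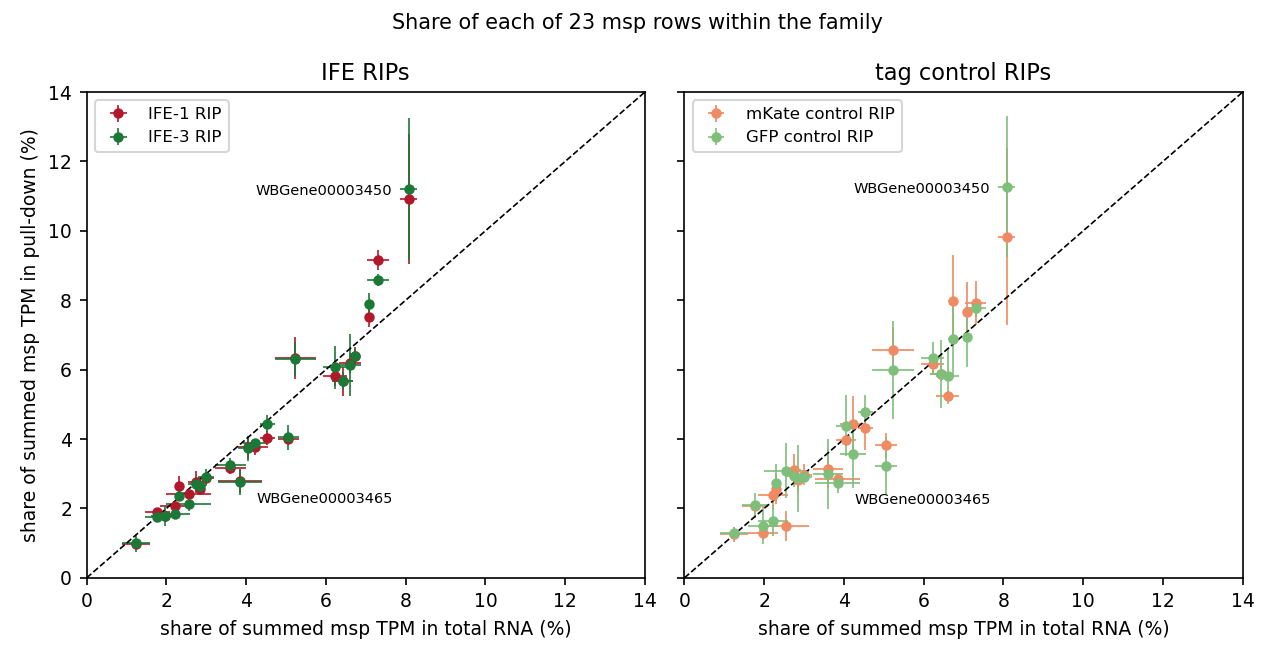
Share of each of the 23 abundant msp rows in the summed msp TPM (percent), in pull-downs (vertical) against total RNA (horizontal), as means with SD of 3 libraries; the left panel shows the IFE RIPs, the right panel the controls, and the dashed line equal shares. Most rows lie near the line in both panels, with WBGene00003450 above it at 8.08% in total RNA and 9.83% to 11.3% in the pull-downs, and WBGene00003465 below it.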

How the data were processed

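The authors deposited 1 table of TPM per gene for all libraries, and 0 of its value columns were left unmapped. The submitters' processing notes list the build WBcel235 and the tools R 4.4.1, kallisto 0.48.0 and DESeq2 1.34.0, without role or order; annotation and the summing of transcripts are not given there. TPM is relative within a library, so a rise of a few RNAs lowers all others.

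Libraries were scaled by the median ratio over genes above 0 in all libraries of a fit (for printed levels, all 15), and limma 3.58.1 in R 4.3.3 (eBayes with trend, two-sided) was run on log2(scaled TPM + 1), which understates changes of low genes. IFE RIPs and total RNA shared a fit of 9 libraries; each RIP and its control formed a fit of 6. Only the fit of IFE-1 RIP against total RNA was tested on simulated data, with an equal spread for all genes. The wider spread of the control comparisons, the replicate block and the control-corrected difference were not simulated. Replicates are biological per the labels, with no further detail.

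Replicate numbers were checked by correlating deviations from group means over all genes. Same-numbered libraries correlated by 0.149 to 0.396 between the IFE RIPs, where unlike-numbered ones reached 0.107. Between IFE-1 and its mKate control the same-number values were 0.152 to 0.353, only just above the highest unlike-number one of 0.133. Between IFE-3 and its GFP control they were 0.173 to 0.273, with unlike-numbered ones up to 0.0862. The numbers were taken to pair these libraries. This rests on the data, as no label says so, and the counts with the block depend on it. The batch named in the labels is RFP pulldown, GFP pulldown or, for total RNA, lysate; only a RIP and its control carry the same one, so elsewhere batch and group cannot be told apart.

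Rows were named if among the 6 highest in total RNA, if they had the highest or lowest fold change in the 3 comparisons within KX155 among rows with a mean of at least 10 in the higher group, or if called where at most 10 were. The members, lists and alternatives were chosen with earlier results of these data known. Marker lists need symbols and could not be used, so the labelled tissue and the tagged genes were not checked.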

Additional observations from a re-analysis of the deposited data

How the results depend on the processing

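Pseudocounts of 0.1 and 5, filters, the trend, scaling, all 15 libraries in a fit, the replicate block and single libraries left out were tried. Counts of called msp rows stayed within 1.5 times in 85 alternatives, rose in 12 and fell in 8. Medians moved by more than the spread in 2 of 105, and no called row reversed. Some of these could not change: counting every gene of identical sets, as the block holds no such set, and medians with the replicate block or without the trend. The control-corrected median, -0.54, counted as unmoved although it was 0.09 without GFP control RIP 1. For IFE-1 RIP against total RNA, where 0 rows were called, TPM as deposited gave 2 called rows (WBGene00003426 and WBGene00003446) and a median of 0.28, with 10.6% of all genes called. The replicate block gave 1 (WBGene00003426, with 2053 genes called in all against 1232), and leaving out single libraries gave 0 throughout. Here same-numbered libraries correlated by 0.0346 to 0.154 and unlike-numbered ones by up to 0.0865, so the numbers were not taken to pair them. For IFE-3 RIP against total RNA the same-number correlations were 0.0552 to 0.130, all above the highest unlike-number one of 0.0024. They were lower than those between the paired pull-downs. For IFE-3 RIP against total RNA, TPM as deposited gave 1 called row (WBGene00003426) and a median of 0.12, with 22.8% of all genes called. The filter at 5 TPM gave 1 and the replicate block 1 (both WBGene00003465), with 24.2% and 18% of all genes called (2173 genes with the block against 1356). Leaving out single libraries gave 0 to 1. It was 1 without IFE-1 RIP 1 or 3, libraries that enter this fit through the shared spread, with 9.65% and 11.6% of all genes called. For IFE-1 RIP against mKate control RIP, 2 called rows (1 of them WBGene00003462, tested only through the RIP) became 1 with a pseudocount of 0.1 and with one of 5, 0 with no filter, 10 with the filter at 5 TPM and 24 with the replicate block, and 0 to 25 with single libraries left out; of all genes 0.474% were called, 5.61% with that filter, 12.7% with the block and 0 to 12.7% with single libraries left out. For IFE-3 RIP against GFP control RIP, 0 became 12 with all 15 libraries in 1 fit and 0 to 12 with single libraries left out; of all genes 0.0898% were called, 4.32% with all libraries and 0 to 2.21% with single libraries left out. TPM as deposited moved the median of all genes to -0.20 against mKate control RIP and -0.29 against GFP control RIP. The 23 abundant rows all stayed above 0 there, with medians of 0.98 and 1.48. The block changed no msp call between the paralogs or in the control-corrected difference. Depth is unknown, and 3 libraries a group limit the precision.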

Other observations

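The run of IDs that follows the block was looked at after the values of the block were seen, and no symbol or family is given to these genes. WBGene00003467 had 119.8 ± 26.8 scaled TPM with IFE-1, 112.2 ± 24.7 with IFE-3 and 137.1 ± 6.76 in total RNA, and 49.9 ± 26.8 in the mKate control and 33.0 ± 24.2 in the GFP control (SD, n = 3). WBGene00003470 had 102.8 ± 19.3, 86.2 ± 18.8 and 102.1 ± 12.6 in the same order, and 38.2 ± 11.4 and 30.6 ± 29.2 in the controls. Both rows, like WBGene00003468 and WBGene00003469 between them, had higher means in the 3 KX155 groups than in the controls. WBGene00003473, a few numbers on, had 204.2 ± 15.6 with IFE-1 and 164.5 ± 10.4 in its mKate control, with 73.4 ± 3.68 in total RNA, an order that the msp rows did not show.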
